A study of Mus musculus with 15 samples.

Results

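Immunized mouse knee joints that showed no swelling were compared with knee joints of naive mice. The comparison rests on 6 of the 15 arrays of the series, 3 from synovium of mice with collagen-induced arthritis (CIA) titled as having no joint inflammation and 3 from synovium of healthy naive mice, chosen by their titles. CIA is a mouse model of inflammatory arthritis in which an immune response against type II collagen, the main collagen of joint cartilage, is raised by immunization. The CIA mice received 100 µg of type II collagen with the adjuvant FCA on day 0 and a further 100 µg into the peritoneum on day 21. The treatment text attached to the naive samples lists the immunization as well; it was taken as shared boilerplate, and had the naive mice been immunized, every comparison with them would mean something else. The other CIA groups, with mild, moderate or severe swelling (3 arrays each), enter the filter and the shared estimate of spread and place the values; mild swelling is also compared with no swelling. The labels give neither strain, age, sex, the day of sampling nor the time of day, and they do not state whether each replicate was its own animal, so p-values cover only sample-to-sample spread that could be purely technical.

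The synovium is the soft lining of the joint, in which fibroblasts make hyaluronan and the lubricant proteoglycan 4 and resident macrophages clear debris. In arthritis, cytokines such as interleukin 6 and interleukin 1 beta act on this lining, induce acute phase proteins and chemokines, and draw in neutrophils and monocytes. Tissues also carry circadian clocks, in which the activators BMAL1 (gene Arntl) and CLOCK or NPAS2 drive the genes of their own repressors, the period and cryptochrome proteins, and of output factors such as DBP.

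Signals are MAS5 intensities, which have no natural zero count, and fold changes are differences of log2(signal + 16), a scale that understates changes of dim genes. Each array has a mean signal of 150 after trimming, so values are relative to that mean, and the number of arrays limits their precision. Median signals lay between 36.3 and 41.8 on the 6 arrays, and the 40th percentile, near which signals are dim, between 24.3 and 28.3. For Actb, the 3'-over-5' probe set ratio, a measure of RNA quality, was 0.89 to 1.03 on naive arrays and 1.07 to 1.16 on no-swelling arrays, without overlap (exact two-sided permutation p = 0.1, the smallest that 3 arrays against 3 allow), while that ratio for Gapdh overlapped (0.852 ± 0.0322 and 0.845 ± 0.041, SD, n = 3). The part of RNA quality in the results below was not tested. The dissected tissue held skeletal muscle: the 16 fast-fibre genes measured summed to between 149300 and 182900 units per array. The lubricin gene Prg4, which marks lining fibroblasts, was present at 2104 to 4289 units.

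Joints without swelling differed from naive joints in both directions. Of 14315 genes tested, 217 were higher (1.52%) and 252 lower (1.76%) in joints without swelling at a Benjamini-Hochberg adjusted p under 0.05 in limma, together 3.28%. Of the higher genes 81 exceeded 1 on the log2 scale and 15 exceeded 2, and of the lower genes 55 and 3 did. The median change of all genes tested was -0.01. The no-swelling and naive arrays did not overlap for 466 of the 469 called genes, against 27% of all genes tested. Since the call itself selects genes that differ between these arrays, this is no further support for the calls. In a principal component analysis of the 6 arrays, the first component (40.6% of the variance) put naive arrays between -23.4 and -17.1 and no-swelling arrays between 8.2 and 33.2. No-swelling replicate 2 lay nearest the naive arrays on it and was also apart from the other no-swelling arrays on the second component (21%). The median within-group SD was 0.206 among no-swelling arrays and 0.142 among naive arrays. Among the genes called higher, no-swelling replicate 1 held the highest of the 3 values in 112 of 217. Among the 252 called lower, no-swelling replicate 3 held the lowest value in 116 and replicate 1 in 103. The counts rest on each array: without naive replicate 1, 2 or 3 they were 77, 94 and 58 higher and 76, 91 and 55 lower, without no-swelling replicate 1 63 higher and 69 lower, without no-swelling replicate 2 202 higher and 343 lower, and without no-swelling replicate 3 196 higher and 117 lower. Leaving out each of the 6 arrays in turn, 51 genes stayed called higher each time and 43 stayed called lower each time. Fitted on the 6 arrays alone, 282 genes were higher and 377 lower, and these held 165 of the 217 and 206 of the 252. In that fit 15 of the genes followed through the alternatives lost their call. Of the genes named below, these were Birc5, Csf3r, Dnajb1, Fcgr4, Has1, Klf2, Mcm5, Ptgs2, Timp1, Tnnc1 and Tnni1. Scaled on the hybridization controls, 37 were higher and 51 lower, and 57 of the 106 called genes followed through the alternatives, some not printed here, lost their call. Outside the clock and heat shock genes and the single genes of the closing paragraphs, whose losses are given there, these were, of the genes named below, Aldh1a2, Birc5, Clec4d, Csf3r, Eng, Fcgr4, Fkbp5, Fos, Hif1a, Igtp, Il1b, Il33, Klf2, Mcm5, Myc, Pdpn, Ptgs2, Rps18, Runx1, Sgk1, Slpi, Socs2, Srebf1, Steap4, Vegfa and Vegfb.

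**Figure D1:**
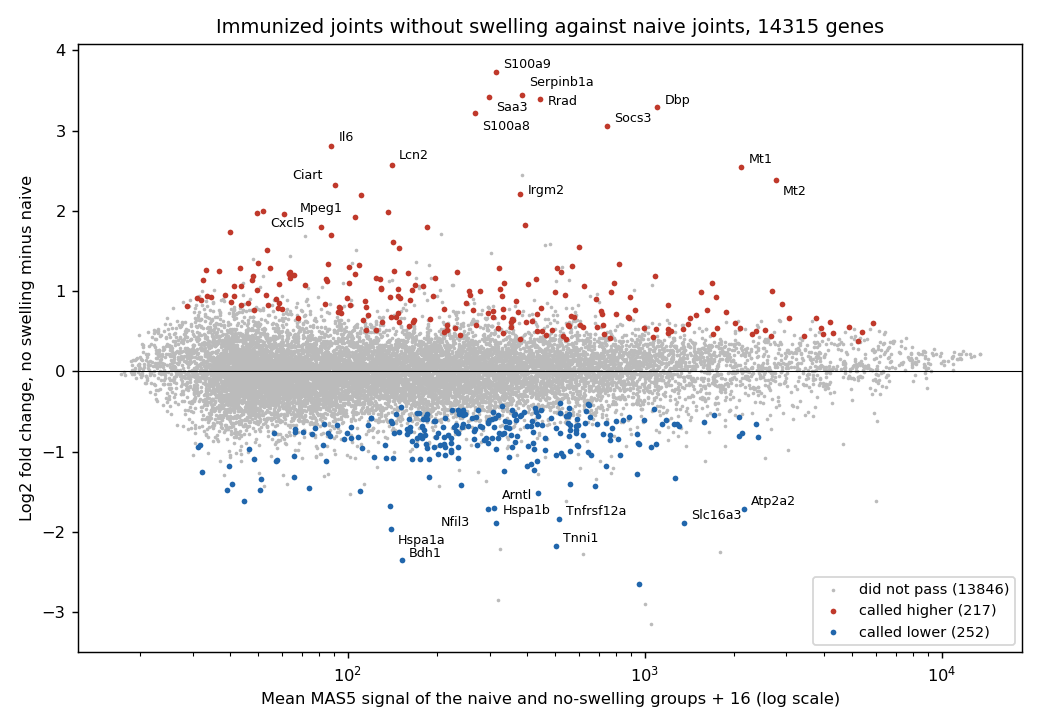
Each point is 1 of the 14315 genes; the x axis is the mean MAS5 signal of the naive and no-swelling groups plus 16 (log scale) and the y axis the log2 fold change, no swelling minus naive. Red points (217) were called higher and blue points (252) lower; the names mark the genes of the naming rule with the largest changes, among them S100a9 at 3.73 and Bdh1 at -2.35.

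Genes of the circadian clock were the list with the most members called. Of 17 clock genes tested, 7 rose, 3 fell and 7 did not pass, and the list's median change was 0.37. The genes that rose included the period genes Per1, Per2 and Per3 (repressors of the loop), the output factor Dbp, and the repressors Ciart, Bhlhe40 and Nr1d2. The genes that fell were the activators Arntl and Npas2 and Nfil3, a repressor of the sites that DBP activates. Under each alternative that left out 1 of the 6 arrays, 6 or 7 clock genes were called higher and 2 or 3 lower. With hybridization control scaling Per1 (0.88, adjusted p = 0.475), Bhlhe40 (0.85, 0.524), Nr1d2 (0.61, 1) and Npas2 (-0.97, 0.261) lost their calls, and averaging probe sets ended that of Nr1d2 (0.39, 0.231).

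Dbp, a PAR-domain transcription factor whose transcript swings widely over the day, read 182, 171 and 213 units on the naive arrays and 2024, 1784 and 2141 on the no-swelling arrays. The 3 no-swelling values lay close together and far above the naive ones, a log2 change of 3.29 (SE 0.21, limma adjusted p = 9.02e-07). Ciart, a repressor of BMAL1-CLOCK, read 10.2, 12.9 and 18.7 against 99.8, 151 and 155 units, from dim to well measured (2.33, SE 0.31, adjusted p = 0.000726). For both genes every no-swelling array exceeded every naive array.

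Per2 read 26.9, 16.9 and 32.6 units in naive joints and 126, 97.1 and 132 without swelling (1.70, SE 0.18, adjusted p = 8.39e-05). Per3 read 65, 70.5 and 45.9 against 193, 189 and 232 (1.54, SE 0.18, adjusted p = 0.000322). Per1 read 102, 73.6 and 101 against 155, 241 and 218 (1.02, SE 0.16, adjusted p = 0.00229). The groups did not overlap for any of the 3 period genes. The changes of Bhlhe40 (0.99, SE 0.12) and Nr1d2, which encodes REV-ERB beta (0.75, SE 0.14), were smaller, and Nr1d2 lost its call without naive replicate 1 (0.68, adjusted p = 0.057).

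The called genes that were lower were the activators Arntl and Npas2 and the repressor Nfil3. Arntl read 473, 467 and 431 units in naive joints and 157, 87.6 and 157 without swelling (-1.70, SE 0.20, adjusted p = 0.000357). Its other probe set was not called (-0.32), while averaging probe sets kept the call. Nfil3 read 527, 368 and 416 against 120, 160 and 89.7 (-1.72, SE 0.25, adjusted p = 0.00177). Both were low on every no-swelling array. Npas2 was dimmer, 44, 39.6 and 52.8 against 24.1, 11 and 12.1 (-0.97, SE 0.20, adjusted p = 0.0167), and lost its call without naive replicate 1 (-0.99, adjusted p = 0.0565), naive replicate 3 (-0.89, 0.092) or no-swelling replicate 3 (-0.90, 0.0524). The clock genes that did not pass included Clock (-0.21, adjusted p = 0.612), Cry1 (-0.48, 0.164), Cry2 (0.37, 0.265) and Nr1d1 (-0.34, 0.28), so the repressor genes were not uniformly higher. The time of day at which the groups were sampled is not in the labels, and sampling time and immunization cannot be told apart.

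The next grade up was measured on separate arrays, whose day and time of sampling the labels do not give either. It therefore places these levels but cannot show whether they held as joints swelled. The comparison of mild swelling with no swelling, which shares the no-swelling arrays with the comparison above, called 5517 genes (38.5%; 23% higher and 15.6% lower). In mildly swollen joints Dbp was lower than without swelling (mean 815 units, log2 change -1.27, adjusted p = 0.000346), and so were Per3 (-0.65, adjusted p = 0.0101), Cry2 (-1.11, 0.000235), Hlf (-0.67, 0.00844) and Tef (-0.57, 0.00477), the last 2 being PAR-domain relatives of Dbp. Arntl (0.12, adjusted p = 0.685), Nfil3 (0.36, 0.287), Per2 (-0.30, 0.192) and Bhlhe40 (0.05, 0.783) did not pass in that step.

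**Figure D2:**
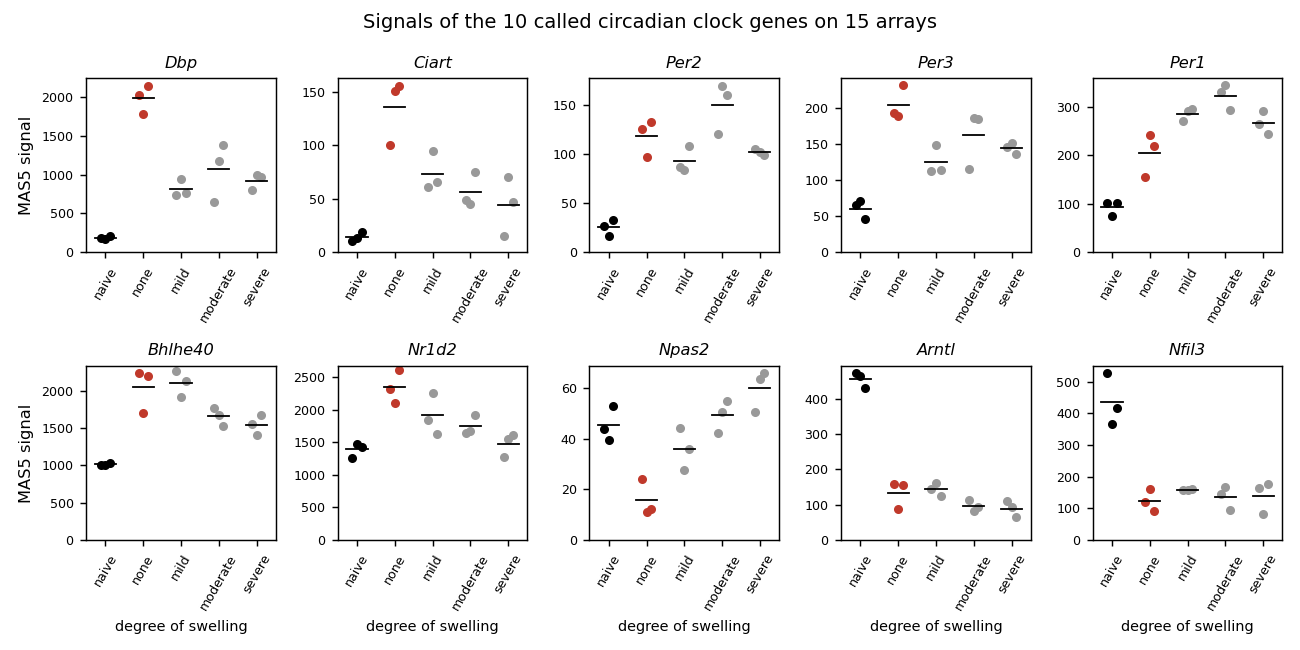
MAS5 signal (y axis, from 0) of the 10 called clock genes on the 15 arrays by degree of swelling (x axis); points are arrays (black naive, red no swelling, grey swollen) and lines are group means of 3. The red points of Dbp, 1784 to 2141 units, lie above those of each other group, while Arntl and Nfil3 are low in each CIA group.

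The promoters of the clock genes were searched for the letters bound by the loop's own factors, and the windows with a match are shown. The windows span 250 bases before to 50 after the start in RefSeq (build GRCm38.p6); 8 of the 10 called clock genes had 1 or more of them. The E-box CACGTG, the site of BMAL1-CLOCK, was found in Ciart and Per1, and the D-box TTANGTAA, the site of DBP and NFIL3, in Per3, searching both strands. Among 32851 promoter windows of the table, 7.15% held an E-box, 0.594% held 2 or more and 0.0883% held 3 or more, and 2.32% held a D-box and 0.0822% held 2 or more. Ciart has 3 E-boxes, at -116, -58 and -44 from the start, Per1 has 1 at -166, and Per3 has 2 D-boxes, at -205 and -158. Matches are in capitals; none overlapped another motif searched here.
Ciart, chr3:95882179-95882478 (minus strand): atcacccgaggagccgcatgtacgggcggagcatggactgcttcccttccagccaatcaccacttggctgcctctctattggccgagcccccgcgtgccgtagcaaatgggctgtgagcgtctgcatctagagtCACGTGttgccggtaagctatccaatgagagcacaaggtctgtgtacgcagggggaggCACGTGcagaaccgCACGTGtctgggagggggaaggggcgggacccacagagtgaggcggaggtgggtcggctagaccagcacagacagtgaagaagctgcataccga
Per1, chr11:69098699-69098998 (plus strand): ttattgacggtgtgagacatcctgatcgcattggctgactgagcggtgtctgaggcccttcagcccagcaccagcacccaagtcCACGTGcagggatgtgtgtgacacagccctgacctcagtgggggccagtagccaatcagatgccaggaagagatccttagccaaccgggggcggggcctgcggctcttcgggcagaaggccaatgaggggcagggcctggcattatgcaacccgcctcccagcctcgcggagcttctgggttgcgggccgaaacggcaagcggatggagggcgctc
Per3, chr4:151044616-151044915 (minus strand): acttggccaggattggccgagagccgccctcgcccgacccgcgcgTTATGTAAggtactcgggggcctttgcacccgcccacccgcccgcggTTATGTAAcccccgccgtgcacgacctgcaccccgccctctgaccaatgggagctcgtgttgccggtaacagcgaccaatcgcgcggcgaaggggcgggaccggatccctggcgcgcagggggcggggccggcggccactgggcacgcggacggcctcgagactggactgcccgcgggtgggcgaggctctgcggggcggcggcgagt
Such matches describe the sequence and are not measured binding, and windows without one (Arntl, Dbp, Nfil3, Npas2 and Nr1d2) say only that these letters are not within them.

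Acute phase, cytokine and neutrophil transcripts were the other large group of higher genes, in joints that the labels describe as not swollen. Saa3, a serum amyloid A made by fibroblasts and macrophages in inflamed tissue, read 31, 25.2 and 42.1 units in naive joints and 784, 462 and 347 without swelling (3.42, SE 0.29, limma adjusted p = 1.63e-05). Il6, the cytokine that drives the acute phase response, read 1.8, 14.1 and 0.7 against 216, 110 and 87.5 (2.80, SE 0.34, adjusted p = 0.000357), so the naive level was dim on each array. Socs3, the feedback inhibitor of interleukin 6 receptor signalling, read 135, 162 and 128 against 1704, 1147 and 1096 (3.06, SE 0.20, adjusted p = 9.02e-07). In these 3 genes no-swelling replicate 1 was the highest and the groups were far apart.

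A panel of 14 inflammation genes, written with earlier results of these data known, gave 9 higher, 0 lower and 5 that did not pass, with a median change of 1.37. Interleukin 1 beta, Il1b, read 36.7, 36 and 30.8 units in naive joints and 151, 100 and 57.1 without swelling (1.16, SE 0.25, adjusted p = 0.0225). The neutrophil-attracting chemokines Cxcl5 (7.1, 4.5 and 1.8 against 81.7, 73.8 and 46 units; 2.0, SE 0.21, adjusted p = 0.0001) and Cxcl1 (138, 112 and 105 against 373, 391 and 182; 1.24, SE 0.22, adjusted p = 0.00704) rose. Of the others, Tnf (0.57, adjusted p = 0.556), Ccl2 (1.35, 0.126), Mmp3 (1.16, 0.103), Mmp13 (1.39, 0.319) and Prg4 (0.51, 0.247) did not pass. Tnf was dim, at 5.1 to 8.6 units on naive arrays, and its 1 high value was 60.7 on no-swelling replicate 3; Mmp13, a collagenase, read 157 on no-swelling replicate 1 against 9.6 and 14.4 on the other two. The panel's count was 6 without no-swelling replicate 1, 7 without no-swelling replicate 2 and 11 without no-swelling replicate 3.

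Monocyte chemokines and inhibitors followed. Of 22 chemokine genes 4 rose (Ccl7, Ccl12, Cxcl1 and Cxcl5) and none fell, with a median of 0.19. Ccl7 read 41, 37.9 and 26.8 units in naive joints and 311, 218 and 89.9 without swelling (1.98, SE 0.32, adjusted p = 0.00358), and Ccl12 read 1.8 to 2 against 59.8, 56.5 and 22.5 (1.74, SE 0.30, adjusted p = 0.00545). Both are ligands of chemokine receptors on monocytes. Of 12 proinflammatory cytokine genes 3 rose, Il6, Il1b and the alarmin Il33 (1.25, SE 0.27, adjusted p = 0.0236). Of 14 genes on a list named for cytokine antagonists, Socs3 and Arg1 rose. Arg1, which encodes the enzyme arginase 1, went from 1.8 to 6.5 units up to 39.8 to 92.5 (1.97, SE 0.34, adjusted p = 0.00526). Timp1, an inhibitor of matrix metalloproteinases, rose by 1.82 (SE 0.42, adjusted p = 0.031), with 940, 768 and 169 units against 118 to 141. Leaving out no-swelling replicate 1 ended the calls of Timp1 (1.38, adjusted p = 0.144), Il1b (0.87, 0.108) and Il33 (0.98, 0.117), and each of them was also lost without any 1 of the naive arrays, Timp1 without no-swelling replicate 2 as well (1.52, 0.0783).

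Most other acute phase genes did not pass. Of 14 acute phase genes Saa3 and Steap4, a metalloreductase (0.72, SE 0.16, adjusted p = 0.0235), rose, while Saa1 (0.44, adjusted p = 0.355), Saa2 (0.17, 0.802), Hp (0.14, 0.875) and Orm1 (0.02, 0.987) did not pass; Steap4 was not called without no-swelling replicate 1 (0.60, 0.116), naive replicate 2 (0.56, 0.096) or naive replicate 3 (0.77, 0.0653). The other probe set of Steap4 was not called (-0.26), and averaging probe sets ended the call. Matrix proteases (0 of 14 called, median 0.25) and complement (0 of 13, median -0.04) gave no call.

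The leading inflammatory transcripts were higher again in mildly swollen joints. Cxcl5 averaged 1244 units with mild and 1723 with severe swelling, a step of 3.90 from no swelling to mild (adjusted p = 7.47e-08). Saa3 averaged 2490 and 4803 units (step 2.23, adjusted p = 6.99e-05), and Il6 838 and 435 (step 2.53, 7.34e-05). Socs3, at a mean of 1316 units without swelling, reached 2590 with mild swelling (step 1.0, adjusted p = 0.00145).

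**Figure D3:**
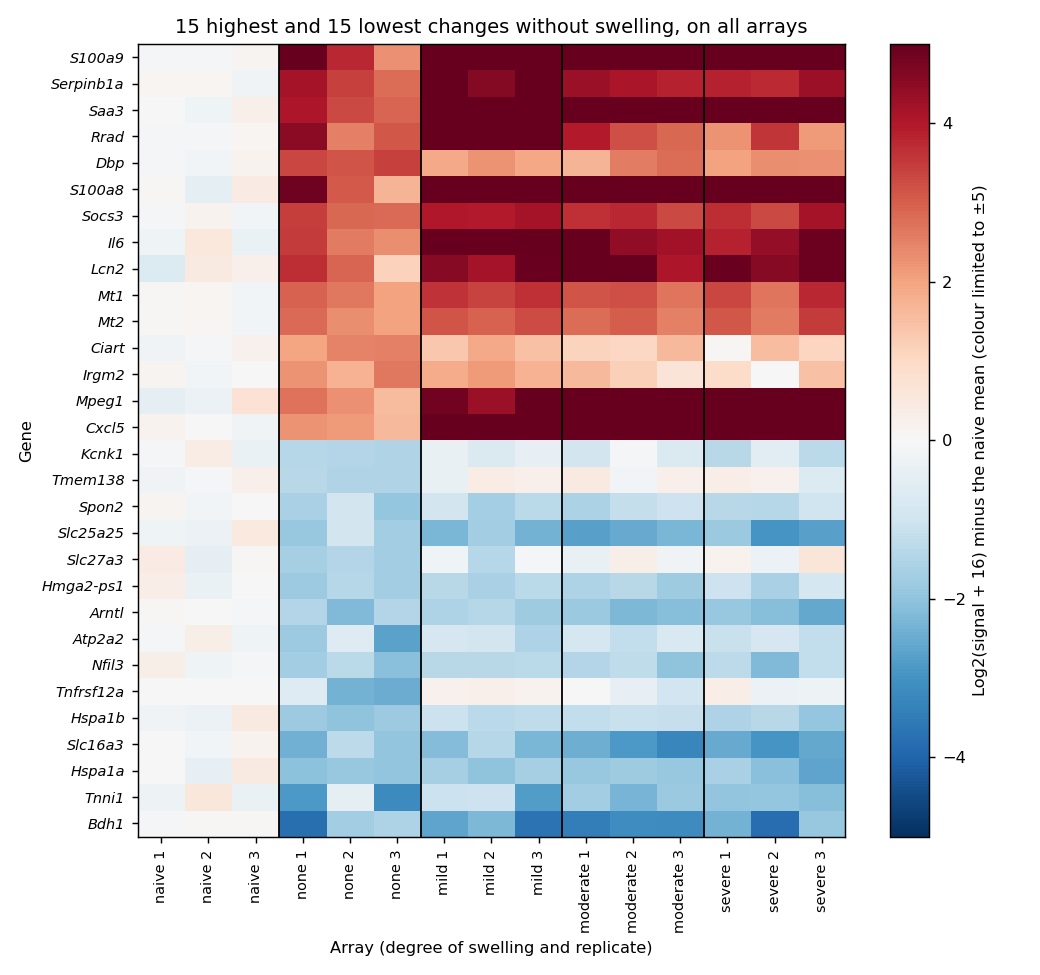
Log2(signal + 16) minus the naive mean (colour, limited to 5 in either direction) of the 15 genes with the highest and the 15 with the lowest changes without swelling, in rows, on the 15 arrays, in columns by degree of swelling. S100a9, Saa3 and Cxcl5 deepen further with swelling, while Dbp and Ciart are darkest in the no-swelling columns.

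Socs3 is shown with its promoter because it is the signalling inhibitor with the largest change. The window holds 1 match to TTCNNNGAA, the spaced palindrome recognised by STAT factors, at -154 (in capitals), as do 8.3% of the 32851 windows.
Socs3, chr11:117969317-117969616 (minus strand): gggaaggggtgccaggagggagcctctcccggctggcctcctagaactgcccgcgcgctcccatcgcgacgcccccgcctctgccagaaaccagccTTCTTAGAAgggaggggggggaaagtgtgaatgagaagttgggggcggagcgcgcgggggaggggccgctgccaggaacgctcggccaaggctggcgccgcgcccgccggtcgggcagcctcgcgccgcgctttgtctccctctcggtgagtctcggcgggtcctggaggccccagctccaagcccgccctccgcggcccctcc
Of 13 genes of the JAK-STAT list tested, Socs3 and Socs2 (0.68, SE 0.17, adjusted p = 0.0373) rose, and the list's median was -0.01 (-0.13 to 0.04 over the alternatives). Stat3 did not pass (-0.03, adjusted p = 0.94). Socs2 was not called without no-swelling replicate 1 (0.54, adjusted p = 0.173) or without any 1 of the naive arrays.

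Neutrophil markers rose unevenly across the no-swelling arrays. Of 12 tested, 5 rose (S100a8, S100a9, Lcn2, Csf3r and Clec4d) and none fell, with a median of 1.06. S100a9, a calcium-binding alarmin abundant in neutrophils, read 15.2, 15.9 and 20.8 units in naive joints and 1154, 437 and 147 without swelling (3.73, SE 0.48, adjusted p = 0.000681). Its partner S100a8 read 22.4, 9.7 and 33.1 against 1054, 292 and 102 (3.21, SE 0.54, adjusted p = 0.00522). Lcn2, which binds iron-carrying siderophores, read 4.2, 28.6 and 23.4 against 405, 231 and 56.1 (2.57, SE 0.48, adjusted p = 0.00985). In each of the 3 genes replicate 1 was high, replicate 2 intermediate and replicate 3 low among the no-swelling arrays, and replicate 3 still exceeded each naive array.

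The granule genes Ngp and Camp, markers of immature neutrophils, were highest on no-swelling replicate 1. Ngp read 633 units there and 118 and 81.1 on the other no-swelling arrays, against 48.7 to 74.8 in naive joints, and Camp read 186, 9.7 and 11.6 against 6.2 to 25.5. Neither passed (adjusted p = 0.315 and 0.545). Cxcr2, a receptor of mature neutrophils, stayed dim at 7.9 to 15.4 units without swelling (0.29, adjusted p = 0.482) and averaged 90.7 with mild swelling. The 12 markers summed to 285 to 364 units on naive arrays and to 679 to 3910 on no-swelling arrays (exact permutation p = 0.1, the smallest possible). Without no-swelling replicate 1, 2 of the 12 stayed called: Csf3r (1.0, adjusted p = 0.155), Clec4d (1.17, 0.0603) and Lcn2 (2.02, 0.0555) were lost. Lcn2 was also lost without naive replicate 1 (2.22, adjusted p = 0.0584), Clec4d without naive replicate 2 (1.16, 0.0535) or 3 (1.22, 0.0546), and Csf3r without naive replicate 1 (1.0, 0.144) or 3 (1.16, 0.126). These genes can be transcribed by other cells as well, and in bulk tissue more cells of a type and more RNA per cell cannot be told apart.

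Of 15 macrophage markers Mpeg1 (perforin-2) and Ccr2 (the receptor of monocyte chemokines) rose. Mpeg1 read 11.9, 15 and 46.2 units in naive joints and 234, 167 and 96.4 without swelling (2.19, SE 0.33, adjusted p = 0.00213). Ccr2 read 50.6, 57.9 and 39.8 against 231, 291 and 87.5 (1.61, SE 0.32, adjusted p = 0.0139) and was not called without no-swelling replicate 1 (1.46, adjusted p = 0.0787) or without naive replicate 1 (1.63, 0.0518) or 3 (1.5, 0.077). Markers of resident tissue macrophages did not pass: Timd4 (-0.41, adjusted p = 0.419), Folr2 (-0.20, 0.7), Lyve1 (-0.11, 0.892) and Vsig4 (0.09, 0.863). The 15 markers summed to 2394 to 2658 units on naive arrays and 1985 to 4424 on no-swelling arrays, with overlap.

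No member of the T cell (0 of 9), B and plasma cell (0 of 8), NK (0 of 3), mast cell (0 of 7), dendritic cell (0 of 5) or MHC class II (0 of 8) lists was called. With 3.28% of all genes called, lists this short can hold no call by their size alone. The T cell markers summed to 487 to 589 units on naive arrays and 360 to 435 on no-swelling arrays. Mast cell markers summed to 242 to 315 and 155.5 to 212 units. Neither pair of sums overlapped (exact permutation p = 0.1, the smallest possible). The B and plasma cell, NK, dendritic cell and MHC class II sums did. Defining T cell genes were dim or nearly so: Cd4 read 2.2 to 7.9 units over the 6 arrays and Cd3e 7.7 to 30.7. Erythroid genes (0 of 5 called) summed to 2311 to 2538 units on naive arrays and 1203 to 1717 on no-swelling arrays. MHC class II genes were uneven among the no-swelling arrays, with H2-Aa at 525, 1140 and 235 units, and 3 of the 8 were called higher without no-swelling replicate 3.

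**Figure D4:**
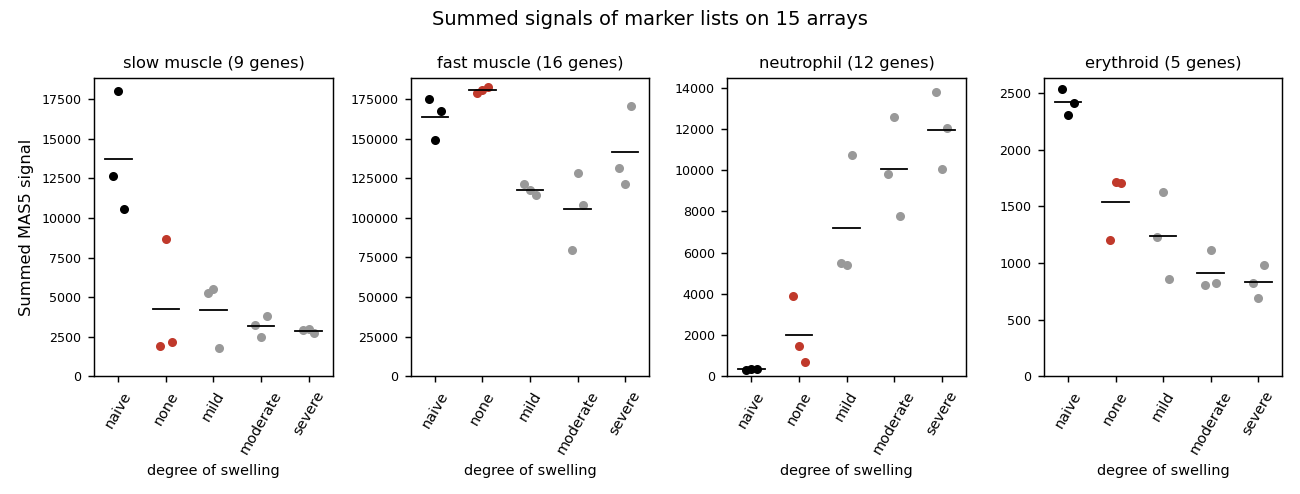
Summed MAS5 signal (y axes, from 0) of 4 marker lists on the 15 arrays by degree of swelling; points are arrays (black naive, red no swelling, grey swollen) and lines are group means. Slow-muscle sums fall from 10590 to 18010 in naive joints to 1887 to 8662 without swelling, fast-muscle sums run from 149300 to 175100 and from 178700 to 182900, and neutrophil sums range from 679 to 3910 without swelling.

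The metallothioneins Mt1 and Mt2, small metal-binding proteins induced by zinc, glucocorticoids and interleukin 6, rose in parallel. Mt1 read 613, 618 and 524 units in naive joints and 4661, 3725 and 2429 without swelling (2.54, SE 0.25, adjusted p = 6.19e-05). Mt2 read 885, 907 and 775 against 6190, 4296 and 3457 (2.38, SE 0.22, adjusted p = 3.98e-05). Both were higher again with mild swelling: Mt1 averaged 3605 units without and 6954 with mild swelling, a step of 0.99 (adjusted p = 0.00602), and Mt2 4648 and 7563 units, a step of 0.74 (0.0167).

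Both belong to a list of 14 glucocorticoid-responsive genes that moved in both directions. Mt1, Mt2, Per1, Lcn2 and the kinase gene Sgk1 (0.61, SE 0.12, adjusted p = 0.0141) rose, of which Per1 is also a clock gene and Lcn2 a neutrophil marker. Fkbp5, the glucocorticoid receptor co-chaperone, fell: it read 552, 560 and 609 units in naive joints and 239, 293 and 243 without swelling (-1.11, SE 0.12, adjusted p = 0.000211). Tsc22d3, which encodes the glucocorticoid-induced leucine zipper, did not pass (0.07, adjusted p = 0.891), nor did Zbtb16 (-0.62, 0.105), Klf9 (0.27, 0.432) and Dusp1 (-0.36, 0.501). Sgk1 was not called without naive replicate 1 (0.62, adjusted p = 0.057), naive replicate 3 (0.59, 0.0772) or no-swelling replicate 1 (0.56, 0.0787).

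Heat shock genes were lower. Of 15 tested, 6 fell, none rose and 9 did not pass, with a median of -0.28. Heat shock proteins are chaperones that refold damaged proteins, and the inducible ones are switched on by the factor HSF1. Hspa1a, the inducible HSP70, read 197, 148 and 278 units in naive joints and 36.6, 43 and 39.7 without swelling (-1.97, SE 0.24, adjusted p = 0.000361). Hspa1b, its near-identical copy, read 417, 383 and 645 against 121, 106 and 120 (-1.89, SE 0.18, adjusted p = 3.98e-05). The no-swelling arrays were alike and low in both, and naive replicate 3 was the highest; probe sets of such near-identical genes may take up each other's transcript, so the 2 values are not independent.

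The co-chaperones fell by less. Dnaja1, an HSP40, read 749, 663 and 880 units against 397, 448 and 333 (-0.93, SE 0.17, adjusted p = 0.00885), Bag3 changed by -0.90 (SE 0.14, 0.00218), Dnajb1 by -0.94 (SE 0.22, 0.031) and Hsp90aa1, the inducible HSP90, by -0.60 (SE 0.16, 0.0464). The constitutive chaperones Hspa8 (-0.28, adjusted p = 0.253), Hspd1 (-0.23, 0.319) and Hspa5 (-0.02, 0.974) and the small chaperones of muscle Cryab (-0.18, 0.609) and Hspb8 (-0.05, 0.944) did not pass. Naive replicate 3 decided some of these calls: without it Dnajb1 (-0.64, adjusted p = 0.122), Dnaja1 (-0.83, 0.0609) and Hsp90aa1 (-0.56, 0.162) were lost and 3 of the 15 stayed lower. Dnajb1 was also lost without no-swelling replicate 1 (-0.89, 0.123) or 3 (-0.93, 0.0744), and Hsp90aa1 without any array but no-swelling replicate 1, with adjusted p up to 0.162. Hybridization control scaling ended the calls of Bag3 (-1.03, adjusted p = 0.279), Dnaja1 (-1.06, 0.252), Dnajb1 (-1.03, 0.222) and Hsp90aa1 (-0.74, 0.801), and quantile normalization those of Dnajb1 (-0.86, 0.0585) and Hsp90aa1 (-0.59, 0.0728). From no swelling to mild swelling Hsp90aa1 (1.13, adjusted p = 8.67e-05), Dnajb1 (0.91, 0.004) and Dnaja1 (0.74, 0.00328) were higher, while Hspa1a did not pass (0.19, 0.572).

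The promoter window of Hspa1a holds 1 match to GAANNTTC, the inverted pair of GAA units that HSF1 binds, at -104 (in capitals; 7.86% of the 32851 windows hold it, searching both strands). Of the 6 genes that fell, 5 had a window and 4 of these held the letters in at least 1 window. In Bag3 the match is at 43, after the start, and Dnaja1 has further windows without one. The share above counts single windows while some genes have several, so it cannot be set against this count. The Hspa1b window has its match at the same place and differs from that of Hspa1a at 4 of 300 positions.
Hspa1a, chr17:34972107-34972406 (minus strand): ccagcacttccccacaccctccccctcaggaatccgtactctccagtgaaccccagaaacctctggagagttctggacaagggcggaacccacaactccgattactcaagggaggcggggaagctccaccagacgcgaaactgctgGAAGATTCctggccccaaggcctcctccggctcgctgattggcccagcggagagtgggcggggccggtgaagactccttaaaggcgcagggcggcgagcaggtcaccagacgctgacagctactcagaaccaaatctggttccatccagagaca
The other arrangement of the units, TTCNNGAA, was not found in the window of either gene; 8.52% of windows hold it.

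Among 22 immediate early genes, transcription factor genes that respond within minutes to stimuli and to tissue handling, Junb, Fos and Myc rose and Klf2 fell. Junb read 69.3, 73.5 and 56.6 units in naive joints and 331, 258 and 227 without swelling (1.79, SE 0.20, adjusted p = 0.000215). Fos read 317, 297 and 307 against 845, 966 and 596 (1.31, SE 0.23, adjusted p = 0.00712). Myc changed by 1.13 (SE 0.21, adjusted p = 0.00985). Jun, which encodes the partner of FOS in AP-1, did not pass (-1.33, adjusted p = 0.126): naive replicates 2 and 3 read 1269 and 1324 units, while naive replicate 1 (392.4) was near the no-swelling arrays (306 to 382). Klf2, a factor of quiescent endothelium, fell by 0.92 (SE 0.24, adjusted p = 0.046), and its call was lost without no-swelling replicate 1 (-0.80, 0.188), no-swelling replicate 3 (-0.79, 0.14) or naive replicate 2 (-0.88, 0.126) or 3 (-0.77, 0.183). Myc was lost without no-swelling replicate 1 (0.90, adjusted p = 0.0563) or naive replicate 3 (1.11, 0.0503). Egr1 (0.65, adjusted p = 0.215), Atf3 (-0.49, 0.3) and Nr4a1 (-0.47, 0.261) did not pass.

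Of the interferon lists, 2 genes rose, both interferon-inducible GTPases. Irgm2 read 129, 105 and 115 units in naive joints and 617, 422 and 799 without swelling (2.21, SE 0.32, adjusted p = 0.00171). Igtp read 187, 208 and 194 against 497, 415 and 410 (1.10, SE 0.18, adjusted p = 0.00503). Irgm2 was highest on no-swelling replicate 3, the array with the lowest neutrophil markers, and Igtp was highest on no-swelling replicate 1. The remaining 11 of 13 interferon gamma response genes did not pass, among them Irgm1 (-0.01, adjusted p = 0.983), Gbp2 (0.11, 0.851), Irf1 (-0.21, 0.433) and Cxcl9 (0.26, 0.76), and of 17 type I interferon response genes 0 were called (median -0.27). Irgm2 averaged 613 units without swelling, 478 with mild and 231 with severe swelling; the step to mild did not pass (-0.31, adjusted p = 0.471).

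Several slow-twitch muscle genes were lower, and no fast-twitch gene was called. Of 9 slow-fibre genes 3 fell (Tnni1, Tnnc1 and Atp2a2), none rose, the median was -2.25, and 7 of 9 did not overlap between the groups, all lower (against 14.1% of all genes tested). Tnni1, slow troponin I, read 608, 1067 and 578 units in naive joints and 85.2, 515 and 65.9 without swelling (-2.17, SE 0.56, adjusted p = 0.0464). Tnnc1, slow troponin C, read 1362, 2268 and 891 against 126, 911 and 72.3 (-2.65, SE 0.68, adjusted p = 0.0464), and Atp2a2, the slow calcium pump, 2991, 3799 and 2691 against 883, 1994 and 478 (-1.71, SE 0.35, adjusted p = 0.0167).

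No-swelling replicate 2 lay between the other no-swelling arrays and the naive arrays in Tnni1 and Atp2a2. In Tnnc1 it (911 units) exceeded naive replicate 3 (891), so the groups of that gene overlapped. Naive replicate 2 was the highest in each of these genes. The largest change of the list, that of the slow myosin Myh7, did not pass: 1373, 2704 and 1201 units against 87.4, 763 and 65.5 (-3.15, SE 0.88, adjusted p = 0.0639). Without no-swelling replicate 2, 7 of the 9 genes were called lower. Without no-swelling replicate 3, 1 stayed called, Atp2a2, with Tnni1 at -1.67 (adjusted p = 0.157) and Tnnc1 at -1.97 (0.157). Without no-swelling replicate 1 none was; there Tnni1 changed by -1.82 (adjusted p = 0.196), Tnnc1 by -2.31 (0.189) and Atp2a2 by -1.66 (0.0759), and leaving out any 1 naive array ended these 3 calls as well (adjusted p up to 0.152).

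Of 16 fast-fibre genes 0 were called, 8 did not overlap and were higher (against 13% of all genes tested) and 1 did not overlap and was lower; the median was 0.19, and close to 0 after quantile normalization (-0.005). The exception in direction was the fast oxidative myosin Myh2, at 502, 4754 and 7010 units against 7781 to 7997 in naive joints (-1.61, adjusted p = 0.258), where no-swelling replicate 1 stood apart. The fast-fibre sum was 149300 to 175100 units on naive arrays and 178700 to 182900 on no-swelling arrays (exact permutation p = 0.1). The part of the muscles taken with the joint in the slow-fibre values was not tested.

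Of the lists of energy metabolism, that of glycolysis held called genes. Slc16a3, the lactate exporter MCT4 of glycolytic fibres, read 2038, 1882 and 2369 units in naive joints and 380, 839 and 525 without swelling (-1.89, SE 0.27, adjusted p = 0.00171). Ldhb, the lactate dehydrogenase subunit of oxidative fibres, read 975, 992 and 925 against 210, 465 and 426 (-1.43, SE 0.25, adjusted p = 0.00668). These were the only called members among 17 glycolysis genes (median 0.09). The 3 other probe sets of Ldhb were lower too (-1.38 to -1.19) but not called, and averaging probe sets ended its call. Bdh1, which interconverts ketone bodies, read 211, 237 and 238 against 1.9, 56.6 and 68.9 (-2.35, SE 0.54, adjusted p = 0.0288); it was dimmest on no-swelling replicate 1, and its call was lost without that array (-1.64, adjusted p = 0.116) or without any 1 naive array (up to 0.104). None of the genes of oxidative phosphorylation (0 of 21, median 0.02) or fatty acid oxidation (0 of 15, median -0.02) was called.

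Of 15 genes of hypoxia and angiogenesis Vegfa and Vegfb fell and Hif1a rose. Vegfa, the main endothelial growth factor, read 925, 1179 and 978 units in naive joints and 487, 550 and 673 without swelling (-0.84, SE 0.18, adjusted p = 0.0202). Vegfb changed by -0.94 (SE 0.24, adjusted p = 0.0466) and Hif1a, the oxygen-regulated transcription factor, by 0.98 (SE 0.22, adjusted p = 0.0251). The 3 other probe sets of Hif1a were not called (-0.29 to 0.59), and averaging probe sets ended its call. Without no-swelling replicate 1 the calls of Vegfa (-0.73, adjusted p = 0.106), Vegfb (-0.80, 0.194) and Hif1a (0.83, 0.123) were lost; Vegfb was lost without any 1 of the 6 arrays, Hif1a without any 1 naive array too, and Vegfa without naive replicate 2 or 3.

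The joint lining and its vessels changed in few genes. Of 18 synovial fibroblast genes Has1 and Pdpn rose. Has1, a hyaluronan synthase, read 13.4, 75.6 and 8.8 units in naive joints and 162, 200 and 78.1 without swelling (1.92, SE 0.41, adjusted p = 0.0202), with naive replicate 2 just under the lowest no-swelling array. Pdpn, podoplanin, read 220 to 234 against 500, 407 and 314 (0.78, SE 0.19, adjusted p = 0.0424). Without no-swelling replicate 1 neither was called (Has1 1.81, adjusted p = 0.0933; Pdpn 0.62, 0.19), and without no-swelling replicate 2 neither was (1.67, 0.0537; 0.77, 0.0737). Has1 was also lost without naive replicate 1 or 3 and Pdpn without any 1 naive array. Has2 did not pass (-0.01, adjusted p = 0.98) and was higher by 2.90 in the step to mild swelling (adjusted p = 1.68e-06). Fibroblast matrix genes (0 of 19, median -0.12) and cartilage genes (0 of 11, median -0.07) gave no call.

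Of 15 endothelial genes Selp rose and Eng fell. Selp, the P-selectin on which leukocytes roll, read 7.8, 15 and 12.3 units in naive joints and 83.1, 59 and 48.4 without swelling (1.51, SE 0.22, adjusted p = 0.00177). Eng, endoglin, read 385, 401 and 426 against 212, 276 and 246 (-0.69, SE 0.13, adjusted p = 0.00863) and was not called without no-swelling replicate 1 (-0.60, adjusted p = 0.0557) or naive replicate 3 (-0.66, 0.0552). General endothelial markers did not pass, among them Pecam1 (-0.09, adjusted p = 0.806), Cdh5 (-0.48, 0.101) and Kdr (-0.60, 0.0899).

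**Figure D5:**
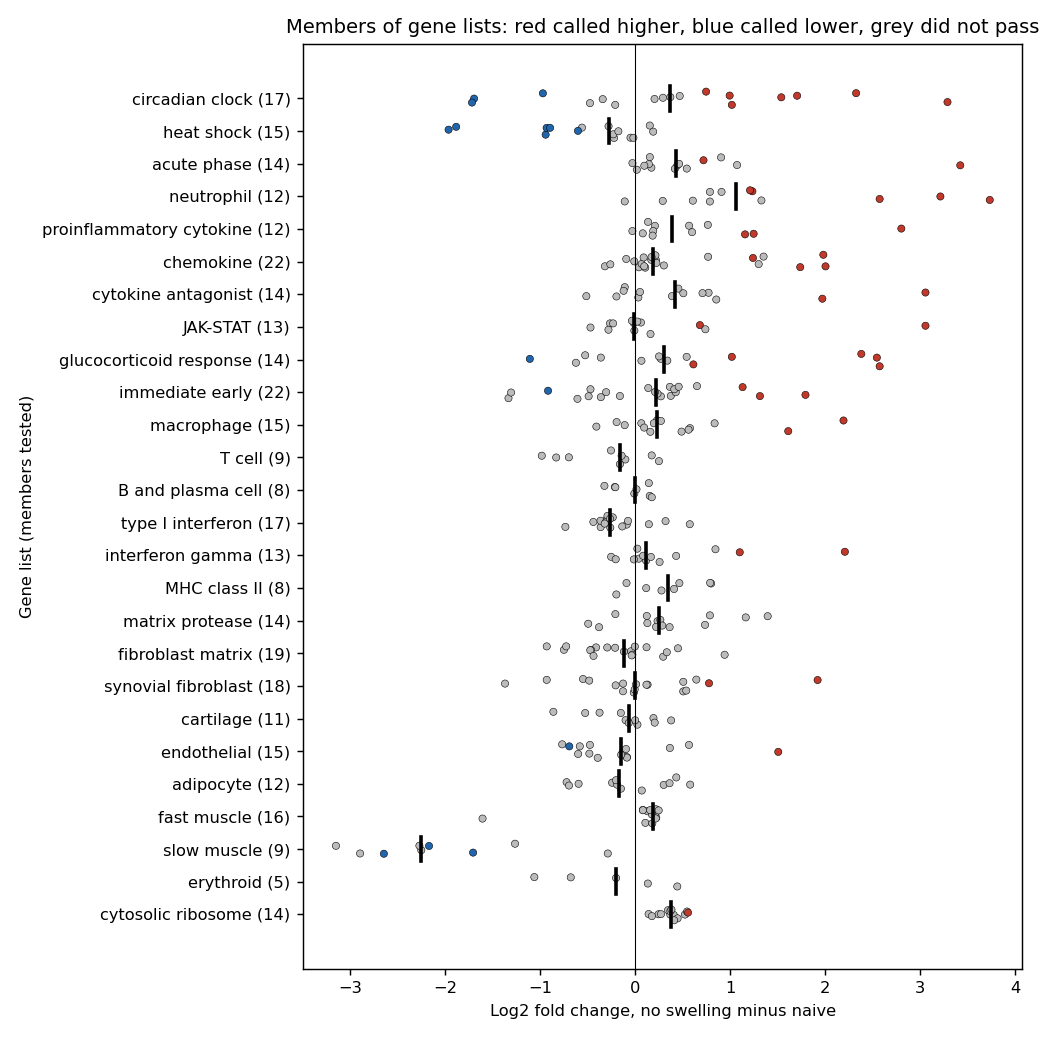
Log2 fold change, no swelling minus naive (x axis), of each tested member of 26 gene lists (rows, with the number of members tested); red members were called higher, blue lower, grey did not pass, and black bars are list medians. Clock and glucocorticoid-responsive genes lie on both sides of 0, heat shock calls are all on the left, and the slow-muscle median is -2.25.

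Further genes with the largest changes belong to none of the groups above. Serpinb1a, an inhibitor of neutrophil serine proteases, read 49.1, 48.3 and 37.6 units in naive joints and 1060, 629 and 400 without swelling (3.44, SE 0.29, adjusted p = 1.63e-05). Rrad, a small GTPase of muscle that dampens calcium channels, read 47.6, 47.7 and 55 against 1508, 363 and 554 (3.39, SE 0.43, adjusted p = 0.000625). Both were higher still with mild swelling, at means of 2240 and 2620 units, and Rrad averaged 446 with severe swelling.

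Tnfrsf12a, the receptor of the cytokine TWEAK, read 771, 735 and 746 units in naive joints and 475, 131 and 120 without swelling (-1.84, SE 0.36, adjusted p = 0.0133). No-swelling replicate 1 was nearer the naive arrays, and the mean was 877 units with mild swelling (step 2.06, adjusted p = 0.000505). The call was lost without naive replicate 1 (-1.82, 0.0545) or 3 (-1.84, 0.059). A similar pattern over the groups was seen for Tmem138, a protein of the ciliary base, at 49.2, 54.6 and 72 units against 12, 9.9 and 9.8 (-1.48, SE 0.26, adjusted p = 0.00712) and a mean of 64.4 with mild swelling (step 1.56, 0.000393). Without naive replicate 3 its adjusted p was 0.0503 (-1.35). In naive joints the means were 751 units for Tnfrsf12a and 58.6 for Tmem138, which was dim without swelling. Mildly swollen and naive joints were not compared by a test. Both genes were named for their low values without swelling, and the step to mild swelling uses those same values.

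Spon2, an extracellular matrix protein of innate defence, read 160, 128 and 144 units against 36.1, 68.2 and 25.6 (-1.49, SE 0.25, adjusted p = 0.00522), and the pseudogene Hmga2-ps1 244, 147 and 194 against 42.1, 60.8 and 45.7 (-1.67, SE 0.21, adjusted p = 0.000569). The other probe set of Spon2 was not called (-0.38), and averaging probe sets ended its call. Slc25a25, a mitochondrial ATP-magnesium carrier, changed by -1.51 (SE 0.30, adjusted p = 0.015), Slc27a3, a fatty acid transport protein family member, by -1.61 (SE 0.34, 0.0196) and Kcnk1, a potassium channel, by -1.47 (SE 0.29, 0.0125). The last 2 were dim without swelling, at 3.8 to 8 units. The calls of Slc25a25 (-1.32, adjusted p = 0.0828) and Slc27a3 (-1.59, 0.0787) were lost without no-swelling replicate 1 and without naive replicate 3, that of Slc27a3 also without naive replicate 1 (-1.41, 0.0957) or no-swelling replicate 3 (-1.56, 0.0529), and that of Kcnk1 without naive replicate 2 (-1.28, 0.064).

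Of 14 cytosolic ribosomal protein genes tested, 13 did not overlap between the groups, all higher (against 13% of all genes tested), the median was 0.38, and 1 was called: Rps18, at 3872 to 3985 units in naive joints and 6870, 4889 and 5730 without swelling (0.56, SE 0.14, adjusted p = 0.043). The next was Rps4x (0.52, adjusted p = 0.0541). Rps18 lost its call without no-swelling replicate 1 (0.43, adjusted p = 0.194) or 3 (0.56, 0.0973) and without any 1 naive array. The median of these bright genes was 0.23 after quantile normalization, 0.24 with hybridization control scaling and 0.42 with array medians aligned. The part of array scaling in their values was not tested.

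Single members of other lists rose: the proliferation genes Mcm5 (0.96, SE 0.23, adjusted p = 0.0334) and Birc5 (1.14, SE 0.29, 0.0419, with overlapping groups) of 18 cell cycle genes, Ptgs2, the inducible cyclooxygenase (1.14, SE 0.29, 0.0457) of 14 prostanoid and leukotriene genes, Fcgr4 (1.09, SE 0.25, 0.0315) of 10 Fc gamma receptor genes, and Aldh1a2, a retinoic acid-synthesizing enzyme (1.35, SE 0.28, 0.0181) of 12 retinoid genes. Srebf1, the regulator of fatty acid synthesis (0.77, SE 0.18, 0.0315), rose among 14 lipogenesis genes, Runx1 (1.22, SE 0.25, 0.0184) among 14 genes of muscle atrophy and denervation, and the protease inhibitor Slpi (1.33, SE 0.34, 0.045) beside Timp1. Each of these 8 calls was lost without no-swelling replicate 1 (adjusted p between 0.0603 and 0.2) and, apart from Runx1, Birc5 and Fcgr4, which kept theirs without 1 naive array, without any 1 of the naive arrays. Leaving out no-swelling replicate 2 also ended the calls of Birc5 (1.16, 0.064), Fcgr4 (0.90, 0.0796), Ptgs2 (1.13, 0.0757) and Slpi (1.27, 0.0862), and leaving out no-swelling replicate 3 those of Fcgr4 (1.14, 0.0569) and Srebf1 (0.77, 0.072). The other probe set of Mcm5 was not called (-0.05), and averaging probe sets ended its call.

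A panel of sex-linked genes, which would show groups of unlike sex, gave no call among 4 tested. Xist, the RNA of the inactive X chromosome, read 75.5, 47.8 and 18.9 units in naive joints and 34.8, 36.5 and 43 without swelling, with overlap (-0.12, adjusted p = 0.86; 0.19 without naive replicate 1). The Y-linked Eif2s3y (0.45, adjusted p = 0.364), Kdm5d (0.21, 0.396) and Uty (0.62, 0.148) did not pass, but their groups did not overlap and each was higher without swelling (3 of 4 panel genes, against 13% of all genes tested). Y-linked signal was above the array median on each of the 6 arrays, with Eif2s3y at 347 to 547 units and Kdm5d at 95.6 to 138. What sets the difference between the groups was not tested. The panel summed to 582.5 to 638.6 units on naive arrays and 733 to 894 on no-swelling arrays (exact permutation p = 0.1, the smallest possible).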

How the data were processed

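Synovium RNA of 15 samples was measured on Affymetrix mouse 430 2.0 arrays, 3 per group. The authors deposited MAS5 intensity values (per the submitters' processing notes; no version is stated there), scaled so that each array's trimmed mean is 150. They were turned to log2(signal + 16), with 1 probe set per gene (the one with the highest mean) of 34958 probe sets with 1 symbol; 932 have several and 9211 none. Genes whose signal passed the 40th percentile of that array on 3 or more of the 15 were tested (14315 of 18194) with limma 3.58.1 (R 4.3.3): group means over 15 arrays, eBayes with an intensity trend, and Benjamini-Hochberg adjustment over all genes tested, with a threshold of 0.05. The code was checked on simulated data.

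Genes were named by rule: the 15 highest and 15 lowest called genes with groups that do not overlap, from each list up to 3 called members, by lowest p, and the genes of an inflammation and a sex panel; values for mild against no swelling were meant for these genes only. Further called list members, list members that did not pass and the mild-swelling values of Cry2, Hlf, Tef and Has2 were picked with those values in view. The members, the gene lists and the naming rule were chosen with earlier results of these data known. Same-numbered samples of the 2 groups did not deviate together (correlations -0.087, -0.184 and -0.004), so the number was not used as a block. Alternatives were the pseudocount (1 or 64), the filter, all or averaged probe sets, the trend, scaling (quantile, aligned medians, hybridization controls), array weights, only the groups compared, a replicate block and each array left out. Sums of lists were compared by exact two-sided permutation. Promoters come from RefSeq.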

Additional observations from a re-analysis of the deposited data

Results flagged for a closer look

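Probe sets without a single gene symbol stand outside the comparison by gene. Of 5512 of them that passed the filter, 92 were called (60 higher and 32 lower without swelling, limma with Benjamini-Hochberg adjustment). Over all 31522 probe sets tested singly, 390 were higher and 481 lower, a larger share. Probe set 1420394_s_at read 86, 83.7 and 79.8 units in naive joints and 388, 353 and 255 without swelling (log2 change 1.79, adjusted p = 3.15e-05). Probe set 1448554_s_at read 454, 1013 and 480 against 6.5, 288 and 9.3 (-3.48, adjusted p = 0.0404), with no-swelling replicate 2 apart from the other two. Probe set 1431214_at read 232, 189 and 203 against 67.1, 53.7 and 43.3 (-1.67, adjusted p = 0.0113). No single-array outliers were looked for, since groups hold 3 arrays.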

How the results depend on the processing

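Of 115 genes followed through the alternatives, 106 were called, and 31 of these kept their call under all 20 alternatives. Some calls also depend on the probe set chosen. Other probe sets of Ccr2 (0.40 to 0.60), Eng (-0.20), Ptgs2 (0.55), Rps18 (0.34 to 0.37), Slc25a25 (-0.58 to -0.38) and Kcnk1 (-0.81) were not called. The counts (higher and lower) were 37 and 51 with hybridization control scaling, which moved the median of all genes to -0.11, 390 and 481 over every probe set, 129 and 161 without an intensity trend, 553 and 621 with array weights (which did not converge), and 496 and 573 with gene-by-gene weights, an alternative chosen after seeing the data. Higher calls were 130 with averaged probe sets, and lower calls were 153 after quantile normalization and 161 with aligned medians. With the replicate block, 127 genes were higher and 169 lower. Leaving out 1 array gave 58 to 202 higher and 55 to 343 lower. For mild against no swelling, hybridization control scaling gave 6508 higher and 35 lower (median of all genes 0.72) and every probe set 5801 and 4203; leaving out 1 array gave 2511 to 3488 higher and 1594 to 2415 lower. Leaving out 1 array moved Tnf between -0.011 (without no-swelling replicate 3) and 0.88 and Xist between -0.50 and 0.19 (without naive replicate 1), which turned their direction; neither was called. The cause of each was not tested. Signals near the 40th percentile limit what can be measured for dim genes such as Il6, Ccl12 and Cxcl5 in naive joints.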

Other observations

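The genes in these paragraphs were chosen after their values were seen. They belong to no list that was tested together, and stand here as single genes. Cebpd, a transcription factor of the acute phase response, read 288, 296 and 281 units in naive joints and 843, 886 and 907 without swelling (log2 change 1.55, SE 0.17, limma adjusted p = 0.000136), with values alike within each group. Csf2rb, the shared beta chain of the GM-CSF, interleukin 3 and interleukin 5 receptors, changed by 1.15 (adjusted p = 0.0011). The C-type lectin receptor Clec7a (dectin-1) changed by 1.31 (adjusted p = 0.00961), but its call was lost without no-swelling replicate 1 (1.14, 0.0603) or naive replicate 3 (1.25, 0.0551). Abca1, which exports cholesterol from cells, read 435, 509 and 494 against 1343, 973 and 872 (1.10, adjusted p = 0.00259). Fzd4, a Wnt receptor of vessels, read 284, 281 and 271 against 682, 710 and 719 (1.29, SE 0.15, adjusted p = 0.000357) and averaged 403 with mild swelling.

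Hspg2 (perlecan) read 768, 708 and 713 units in naive joints and 363, 379 and 334 without swelling (-0.99, SE 0.14, adjusted p = 0.00171). Lamc1, the laminin gamma 1 chain, read 675, 670 and 744 against 312, 410 and 276 (-1.05, adjusted p = 0.00171), and Ltbp4, which binds latent TGF-beta, 537, 539 and 539 against 182, 286 and 232 (-1.17, adjusted p = 0.00445). These are single genes: of the 19 genes of the fibroblast matrix list 0 were called (median -0.12). For Hspg2, Lamc1 and Ltbp4 each no-swelling array was below each naive array. Rflnb, a regulator of actin-bound filamin, read 326, 361 and 313 against 123, 96.5 and 127 (-1.41, adjusted p = 5.51e-05). The regulator of cholesterol synthesis Srebf2 changed by -1.09 (adjusted p = 0.00712), while 0 of 13 cholesterol synthesis genes were called. With hybridization control scaling Cebpd and Rflnb kept their calls and the other genes of these paragraphs lost theirs, Ltbp4 (-1.28, adjusted p = 0.0572) and Srebf2 (-1.16, 0.0897) having the lowest adjusted p among them and Abca1 (0.96, 0.351) the highest. Averaging probe sets ended the call of Csf2rb (0.71, 0.078).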
